A study of Mus musculus with 12 samples.

Results

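Primary microglia of homozygous *Trem2* R47H knock-in (KI) mice were compared with wild-type (WT) microglia, both untreated. The libraries were chosen by the genotype and treatment in their labels, which gave 6 of the 12 RNA-seq libraries of the series: cultures T15, T22 and T32 for KI, and cultures T13, T33 and T43 for WT. All mice were on the C57BL/6J background, and the 6 libraries left out were the same cultures after 48 h with 20 ng/ml of the cytokine IL-4. Mixed glia from the cortex and hippocampus of newborn pups were grown to confluence, and microglia were freed of the overlying astrocyte layer with dilute trypsin and replated. The KI allele carries the arginine-to-histidine change in the endogenous gene, and this line also makes less *Trem2* transcript because of a splicing effect described in mice, so amino acid change and lower transcript cannot be told apart. The study describes the sequenced cultures as those of KI mice and WT littermates, with 3 mice per genotype, although its general protocol pools several pups of a litter for preparations of the WT strain and keeps pups of the KI line apart. Which of the 6 cultures shared a litter, and whether any held more than 1 pup, is not given in the sources used here, so the p-values below measure the spread between these cultures only.

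TREM2 is a receptor of microglia and other myeloid cells that binds lipids, apolipoproteins and cell debris. It has no signalling tail of its own and works through the adaptor DAP12, encoded by *Tyrobp*, which recruits the kinase SYK. In the brain, TREM2 is known for its part in phagocytosis, microglial survival and the switch of microglia to an activated state around amyloid plaques, and the human R47H variant raises the risk of Alzheimer's disease (AD).

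Expression was measured as TPM, a unit of transcript abundance in which each library sums to the same total and values are scaled by transcript length. A difference below is KI minus WT on the log2(TPM + 1) scale, which understates the change of low genes. Past the threshold means an adjusted p below 0.05 in limma over the 11134 genes tested. Tested were genes whose mean log2(TPM + 1) over the 6 cultures was above 1.5, the expression limit. The number of reads behind each value is unknown, so precision is given by the spread between cultures.

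The libraries were first checked for their cell type. The 18 microglia and macrophage markers, among them *Csf1r*, *Aif1* and *C1qa*, were all above 1 TPM in each of the 6 libraries. Their summed level was 40203 TPM in WT T13, 40790 TPM in T33 and 39997 TPM in T43, against 17357 TPM in KI T15, 35599 TPM in T22 and 28277 TPM in T32. All KI cultures thus lay below all WT cultures. The mean log2 level of the markers differed by -0.63 (exact permutation test, two-sided p = 0.1, the smallest that 3 against 3 allows) and by -0.38 without T15. In bulk RNA, fewer cells of a type and less RNA per cell cannot be told apart.

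Culture T15 stood apart by its astrocyte RNA. The summed level of 18 astrocyte markers was 1531 TPM in WT T13, 466.3 TPM in T33 and 371.1 TPM in T43, against 8578 TPM in KI T15, 645.6 TPM in T22 and 1584 TPM in T32. *Gfap*, the intermediate filament of astrocytes, reached 3013 TPM in T15 and lay between 80.5 and 389 TPM in the other 5 cultures. Outside T15 the genotypes overlapped, KI T32 being close to WT T13, and KI T22 lying nearest to WT T33 and T43. The mean log2 level differed by 1.52 between the genotypes (exact permutation test, two-sided p = 0.3) and by 0.52 without T15. *Gjb6* was listed at 0 in all 6 cultures. The first principal component of the tested genes took 39.6% of the variance and placed T15 at one end. Of genes on the Y chromosome, *Ddx3y* and *Eif2s3y* were at or near 0 in WT T13 and KI T32 and present in the other 4 cultures, so that each genotype had 1 such culture.

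Markers of further cell types were low or mixed. Endothelial *Cdh5*, *Tek*, *Cldn5*, *Emcn* and *Egfl7* were listed at 0 in all 6 cultures, and the 10 endothelial markers summed to between 19.5 and 29.7 TPM. The 10 fibroblast and meningeal markers summed to between 91.3 and 105.1 TPM in WT and between 88.3 and 144.3 TPM in KI, with *Slc22a6* and *Fbln1* listed at 0 throughout. Of the 5 tested among them, the collagen genes *Col3a1*, *Col1a1* and *Col1a2* had every KI culture above every WT culture (60%, against 13.9% of all genes), at no more than 31.8 TPM, and *Igfbp4*, 1 of the 5, had every KI culture below every WT culture (difference -0.89). The median difference of the 5 was 1.66, and 1.07 without T15. Their part in the differences below was not tested. The 10 mural cell markers summed to between 144 and 334 TPM in WT and between 1094 and 1417 TPM in KI. *Acta2*, *Tagln* and *Cnn1* made up nearly all of that sum. *Pdgfrb* was at 5.91 TPM in KI T15, 2.65 TPM in T32 and 0.2 TPM in T22 against at most 0.103 TPM in WT, and *Des* and *Notch3* passed 1 TPM only in T15, at 1.93 and 1.89 TPM, whereas *Kcnj8* was listed at 0 and *Myh11*, *Abcc9* and *Rgs5* stayed under 1 TPM in every culture. The 14 oligodendrocyte-lineage markers summed to between 69.6 and 136.7 TPM in WT and between 146.9 and 551.9 TPM in KI, highest in T15, and their part in the differences below was not tested. Markers of border macrophages summed to between 1044 and 1380 TPM in WT and between 671.3 and 899 TPM in KI, without overlap. Those of ependymal and choroid plexus cells summed to at most 11.1 TPM in WT and 35.1 TPM in KI, and *Foxj1*, the only one tested, stood at 4.34, 0 and 0.831 TPM in WT and 18.3, 6.21 and 20 TPM in KI. The part of either in the differences below was not tested. Neuronal markers reached at most 69.5 TPM, and neutrophil or monocyte and lymphocyte markers at most 14.9 and 2.26 TPM.

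**Figure D1:**
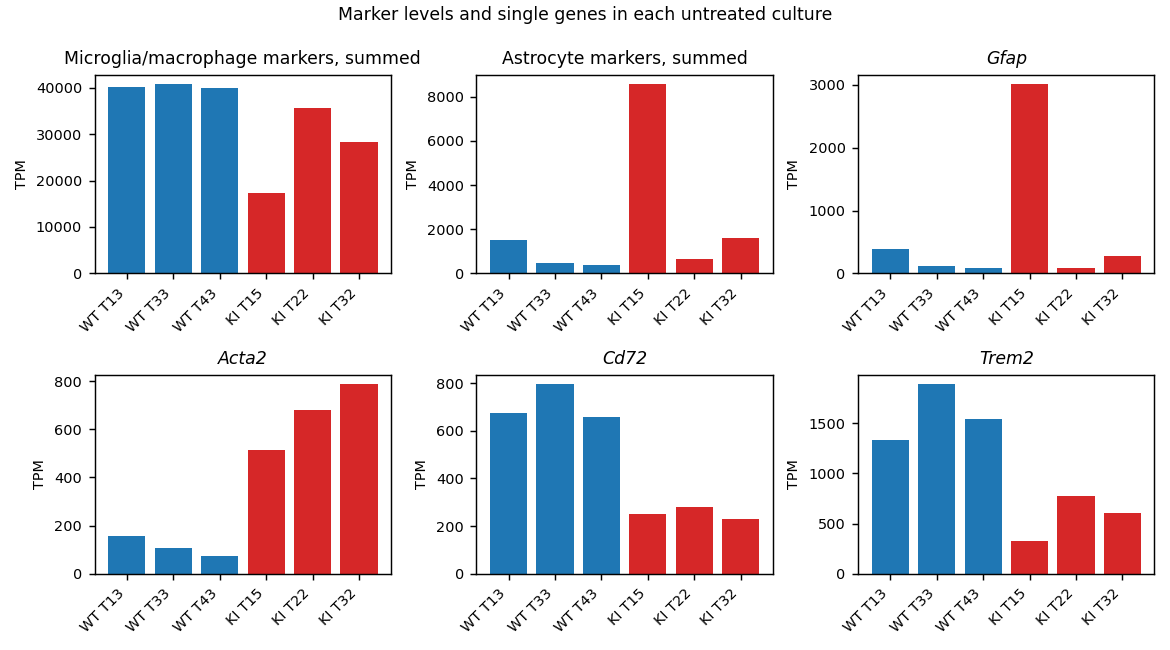
Each bar is 1 untreated culture (blue, WT; red, KI), and the vertical axes are TPM, summed over 18 markers in the first 2 panels and of 1 gene in the others. Astrocyte markers and *Gfap* stand out in KI T15, whereas *Acta2* is higher and *Cd72* and *Trem2* are lower in all 3 KI cultures than in any WT culture.

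*Trem2* itself was lower in every KI culture. It stood at 1328 TPM in WT T13, 1886 TPM in T33 and 1538 TPM in T43, and at 324.6 TPM in KI T15, 769.9 TPM in T22 and 602.2 TPM in T32. The groups did not overlap, and the WT mean of 1584 ± 281.9 TPM was 2.80 times the KI mean of 565.6 ± 224.9 TPM (SD, n = 3 each). The difference of -1.56 (SE 0.29) just missed the threshold (limma, adjusted p = 0.0571). It was past it without T15 (adjusted p = 0.031) and with an astrocyte marker covariate (adjusted p = 0.0182), and the 12-library fit with replicate block gave an adjusted p of 0.0114. It was not past it after quantile normalization (adjusted p = 0.081), relative to the microglial markers (0.086), with no variance trend (0.247) or without T13, T43, T32 or T33 (between 0.0711 and 0.282). Over all alternatives the adjusted p lay between 0.0114 and 0.49. *Tyrobp* had 5890, 7436 and 6697 TPM in the WT cultures and 2285, 5793 and 4422 TPM in the KI cultures, each in the order T13, T33, T43 and T15, T22, T32 used from here on (difference -0.77, adjusted p = 0.326). The *Tyrobp* difference was -0.39 without T15 and -0.15 relative to the microglial markers. Of 12 tested genes of the receptor complex and its signalling, 0 were past the threshold in limma and 4 had an unadjusted p below 0.05, all lower in KI. The median difference of the 12 was -0.24, but 0.02 without T15 and 0.39 relative to the microglial markers. Within 1 Mb of *Trem2*, which lies on GRCm38 chromosome 17 at 48346401 to 48354147, 13 genes were tested, and apart from *Trem2* only *Trerf1*, named here for that reason, had an unadjusted p below 0.05. None was past the threshold in limma.

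Over all genes, 26 were higher and 4 lower in KI past the threshold, and in all 30 the KI and WT cultures did not overlap. That is 0.234% of the genes tested for higher and 0.0359% for lower. Without any threshold, every KI culture lay above every WT culture for 1545 genes (13.9%) and below for 507 genes (4.55%). The difference was positive for 7041 genes (63.2%) and negative for 4093. At an unadjusted p below 0.05, 1183 genes were higher and 321 lower. The median difference of all genes was 0.17, and after median-ratio scaling, which set it to 0.0023, 20 genes were higher and 7 lower. The count depended on which culture was left out. In limma no gene was past the threshold without WT T33 (1026 genes at an unadjusted p below 0.05) or without KI T32 (1240 genes), so each call below was lost in those fits. It was 8 genes without WT T43, 55 without WT T13 and 47 without KI T22. Without KI T15 there were 25 genes higher and 6 lower, 21 of them shared with the 30. The calls lost without T15 were those of *Rnd3*, *Csrp1*, *Ddit4l*, *Crip2*, *Cav1*, *Tmem98*, *Cnn2*, *Gm10241* and *Gm28960*. Each of the 30 genes was past the threshold in between 0 and 4 of the 6 fits without 1 culture, with 0 for *Cnn2*, *Tmem98* and *Gm28960*. With the IL-4 libraries in the fit and the culture as a replicate block, 102 genes were higher and 33 lower.

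**Figure D2:**
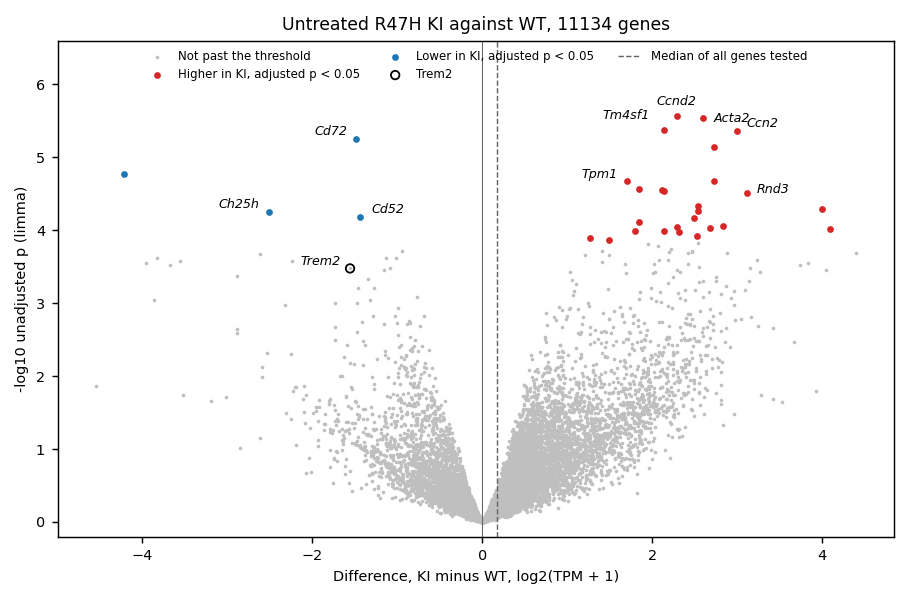
Each point is 1 of the 11134 genes tested, with the KI minus WT difference on the log2(TPM + 1) scale on the horizontal axis and -log10 of the unadjusted limma p on the vertical axis. The 26 red genes lie to the right and the 4 blue genes to the left, with *Trem2* (open circle) below them, and the dashed line marks the median difference of 0.17.

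Genes of the contractile apparatus and of cell adhesion led the genes higher in KI. Of 26 tested genes of that list, 9 were past the threshold, all higher in KI, and 17 had every KI culture above every WT culture (65.4%, against 13.9% of all genes). Their median difference was 1.42 and stayed at 1.42 without T15, against 0.17 and 0.16 for all genes. This list, like the others, was chosen with earlier results of these data known, so its shares and medians are a description. *Acta2*, *Tagln* and *Cnn1* are also the 3 mural cell markers that were tested, and the part of mural cells in these differences was not tested. *Acta2*, smooth muscle actin, stood at 156.8, 107.4 and 72.6 TPM in WT. In KI it stood at 513.8, 679.3 and 786.8 TPM. The KI mean was 5.88 times the WT mean, a difference of 2.59 (SE 0.28, adjusted p = 0.0121), and its lowest KI value was in T15, the culture with the most astrocyte RNA. *Tagln*, the actin-binding protein transgelin, had 154.6, 52.3 and 60.6 TPM in WT and 572.5, 340.7 and 508.7 TPM in KI (difference 2.54, adjusted p = 0.0365). The calponins *Cnn1* and *Cnn2*, which bind actin and tropomyosin, differed by 2.29 and 1.27. *Tpm1*, tropomyosin, was steady in WT at 87.9, 85.4 and 90.2 TPM, and reached 208.6, 307.9 and 372 TPM in KI (difference 1.70, SE 0.23, adjusted p = 0.0263). *Cald1*, caldesmon, which links actin and myosin, differed by 2.14.

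The secreted matricellular proteins *Ccn2* and *Ccn1*, known as targets of the mechanically regulated coactivator YAP, were among the genes with the smallest p. *Ccn2* had 78.3, 33.3 and 32.6 TPM in the WT cultures, in the same order, and 476.6, 288.8 and 339 TPM in the KI cultures. The KI mean was 7.65 times the WT mean (difference 3.00, SE 0.34, adjusted p = 0.0121). *Ccn1* had 125.3, 46.1 and 59.8 TPM in WT and 459.3, 411.7 and 558.4 TPM in KI (difference 2.73, adjusted p = 0.0132). *Tm4sf1*, a tetraspanin-like membrane protein, was at 29.0, 41.6 and 40.2 TPM in WT and 198.7, 166 and 135.3 TPM in KI (difference 2.14, adjusted p = 0.0121). For *Ccn2* and *Tm4sf1* the highest value was that of T15, and for *Ccn1* that of T32.

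Cultures with similar astrocyte levels were set side by side, as a description. All genes compared below were past the threshold in these same cultures, without overlap. Each was therefore bound to be higher in the KI culture of a pair, so the direction of the ratios tests nothing. KI T32, at 1584 TPM of summed astrocyte markers, was read against WT T13 at 1531 TPM, and KI T22, at 645.6 TPM, against WT T33 at 466.3 TPM and WT T43 at 371.1 TPM. *Acta2* was 5.02 times as high in T32 as in T13, 6.33 times as high in T22 as in T33, and 9.36 times as high in T22 as in T43. *Ccn2* was 4.33, 8.67 and 8.85 times as high in the same pairs. Over the 24 genes with an assigned name that were past the threshold and higher in KI, the ratio of T32 to T13 lay between 2.48 and 7.71, with a median of 4.08. The ratio of T22 to T33 lay between 1.81 and 13.5 and that of T22 to T43 between 2.34 and 13.6. Of the 26 genes higher in KI, T15 was the highest KI culture for 10, T22 for 3 and T32 for 13, and T13 was the highest WT culture for 20. With the mean astrocyte marker level as a covariate, 27 of the 30 genes stayed past the threshold, and in all 39 genes were called higher and 12 lower.

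The promoters of the genes past the threshold were searched, because several contractile genes were higher together. RefSeq windows of GRCm38.p6, from 250 bases before to 50 bases after a start, were at hand for 19 of the 30 genes in 24 windows. Motifs were the CArG box bound by serum response factor, the TEAD core GGAATG, and the PU.1 core GAGGAAGT, each on both strands with no mismatch allowed, and no match of one overlapped another in the sequences shown. The CArG box, known from smooth muscle genes, was found in 2 of 22 windows of the genes higher in KI (9.09%). It was in 1.29% of windows of genes tested and in 1.63% of all 32851 windows. GGAATG was found in 4 of the 22 (18.2%), namely those of *Acta2*, *Ccn1*, *Tpm1* and *Cald1*. It was in 11.8% of windows of genes tested and 14.7% of all windows. GAGGAAGT was in 0 of the 22 and in 1 of 2 windows of the lower genes, that of *Cd72*. It was in 3.24% of windows of genes tested and 3.2% of all. These small counts were not tested. The 200 bases before the start, written 5′ to 3′ on the strand of the gene, follow for *Acta2* with its GGAATG match, for *Cnn2* and *Rnd3* with their CArG boxes and for *Cd72* with its PU.1 core, in capitals. A stretch with a mismatch was neither counted nor marked, and that of *Acta2* holds such near matches to the CArG box. A match describes the letters of the window and no more.
*Acta2* (chr19:34255374-34255573, minus strand): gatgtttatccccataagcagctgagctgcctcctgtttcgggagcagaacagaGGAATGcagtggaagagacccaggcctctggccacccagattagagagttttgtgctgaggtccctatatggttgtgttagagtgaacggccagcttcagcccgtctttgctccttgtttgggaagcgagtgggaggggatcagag
*Cnn2* (chr10:79988400-79988599, plus strand): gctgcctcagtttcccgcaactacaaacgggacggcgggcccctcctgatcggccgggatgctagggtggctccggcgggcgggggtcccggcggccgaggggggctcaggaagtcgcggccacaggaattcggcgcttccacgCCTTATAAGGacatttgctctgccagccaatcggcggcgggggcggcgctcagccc
*Rnd3* (chr2:51149112-51149311, minus strand): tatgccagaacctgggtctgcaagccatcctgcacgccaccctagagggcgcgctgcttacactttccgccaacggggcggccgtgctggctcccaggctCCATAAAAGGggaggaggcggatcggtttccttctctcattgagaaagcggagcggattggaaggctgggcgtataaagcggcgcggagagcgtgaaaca
*Cd72* (chr4:43454627-43454826, minus strand): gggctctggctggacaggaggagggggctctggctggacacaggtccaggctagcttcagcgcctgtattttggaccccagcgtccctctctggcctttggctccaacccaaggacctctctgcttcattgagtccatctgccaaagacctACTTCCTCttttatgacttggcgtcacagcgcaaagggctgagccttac

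*Ccnd2*, cyclin D2, which drives entry into the cell cycle from G1, had the smallest p of all genes. Its WT values were 114.2 TPM in T13, 86.2 TPM in T33 and 59.3 TPM in T43, and its KI values 382.4 TPM in T15, 390.7 TPM in T22 and 470.7 TPM in T32. The KI values were close to each other and 4.79 times the WT mean (difference 2.29, SE 0.25, adjusted p = 0.0121). It was the only one of 16 tested G1 cyclins, kinases and inhibitors past the threshold, and the median of that list was 0.30. The 20 proliferation genes had a median difference of 0.029, which was 0.19 without T15 and -0.10 after median-ratio scaling, with 0 past the threshold in limma and 1, *Cdc20*, at an unadjusted p below 0.05.

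Among 25 tested growth factors, binding proteins and colony-stimulating factors, 2 were past the threshold. *Igfbp2*, a secreted binding protein of insulin-like growth factors, stood at 797, 337.8 and 219.3 TPM in WT and at 1971, 2051 and 2617 TPM in KI (difference 2.49, SE 0.38, adjusted p = 0.0393). It was the most abundant of the genes higher in KI. *Hbegf*, a ligand of the epidermal growth factor receptor, had 38.4, 21.8 and 11.2 TPM in WT and 109.1, 139.7 and 137.1 TPM in KI (adjusted p = 0.0365). *Csf1*, the ligand of the receptor on which microglia depend, was at 41.4, 14.6 and 16.3 TPM in WT and 85.9, 73.4 and 119.4 TPM in KI, which did not pass (difference 2.03, adjusted p = 0.0581). Its receptor *Csf1r* was at 888.7, 586.7 and 592.4 TPM in WT and 306.9, 409.4 and 388.6 TPM in KI (difference -0.89, adjusted p = 0.124). Every KI culture lay above every WT culture for *Csf1*, as for 13.9% of all genes, and below for *Csf1r*, as for 4.55%. *Csf1r* is itself 1 of the microglial markers. Relative to these markers its difference was -0.26 and that of *Csf1* was 2.66.

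None of the 19 tested genes of the extracellular matrix list, which does not hold *Ccn1* or *Ccn2*, was past the threshold in limma, but 14 had an unadjusted p below 0.05, all higher in KI. Every KI culture lay above every WT culture for 15 of the 19, 78.9% against 13.9% of all genes. The median difference was 1.66, and 1.56 without T15. *Col3a1*, *Col1a1* and *Col1a2* also belong to the fibroblast markers, whose part in these differences was not tested. *Sparc*, a collagen-binding glycoprotein that astrocytes also make, stood at 386.8, 164.3 and 101 TPM in WT and 1576, 747.6 and 949.7 TPM in KI (difference 2.47, adjusted p = 0.0546). *Timp1*, an inhibitor of matrix metalloproteinases, stood at 18.5, 22.3 and 27.6 TPM in WT and 64.5, 88.8 and 47.2 TPM in KI (difference 1.48, adjusted p = 0.0781). *Sparc* was highest in T15, whereas *Timp1* was highest in T22.

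The remaining genes higher in KI had various roles. *Cryab*, a small heat-shock protein that binds desmin and actin filaments and is abundant in astrocytes, stood at 114.6, 44.5 and 66.2 TPM in WT and 573.2, 244.7 and 305.4 TPM in KI (difference 2.31, adjusted p = 0.0437). It was the 1 gene past the threshold among 16 heat-shock genes, of which 15 had a positive difference and the median was 0.49. *Chil1*, a secreted chitinase-like protein, stood at 12.6, 6.15 and 6.08 TPM in WT and 45.4, 65.8 and 63.4 TPM in KI (difference 2.73, adjusted p = 0.0263). *Rnd3*, an atypical small GTPase that opposes contractility, stood at 4.38, 2.05 and 2.27 TPM in WT and 41.2, 27.7 and 28.1 TPM in KI, the KI mean being 11.2 times the WT mean (adjusted p = 0.0267, and 0.0666 without T15). *S100a11*, a calcium-binding protein, and *Cystm1*, a small membrane protein, differed by 1.84 and 2.11 (adjusted p = 0.0267 each). *Vim*, the intermediate filament vimentin, which microglia, astrocytes and mesenchymal cells all express, stood at 322.4, 332.6 and 227.3 TPM in WT and 1125, 603 and 799.5 TPM in KI (adjusted p = 0.0497). The other named genes were *Cav1*, *Crip2*, *Csrp1*, *Ddit4l*, *S100a10* and *Tmem98*, with differences between 1.79 and 2.84, and like *Vim* they lay outside the 12 of smallest p and outside the lists. *Gm10241* and *Gm28960*, which are predicted gene models, were near or at 0 in WT and so passed the expression limit through their KI values alone.

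**Figure D3:**
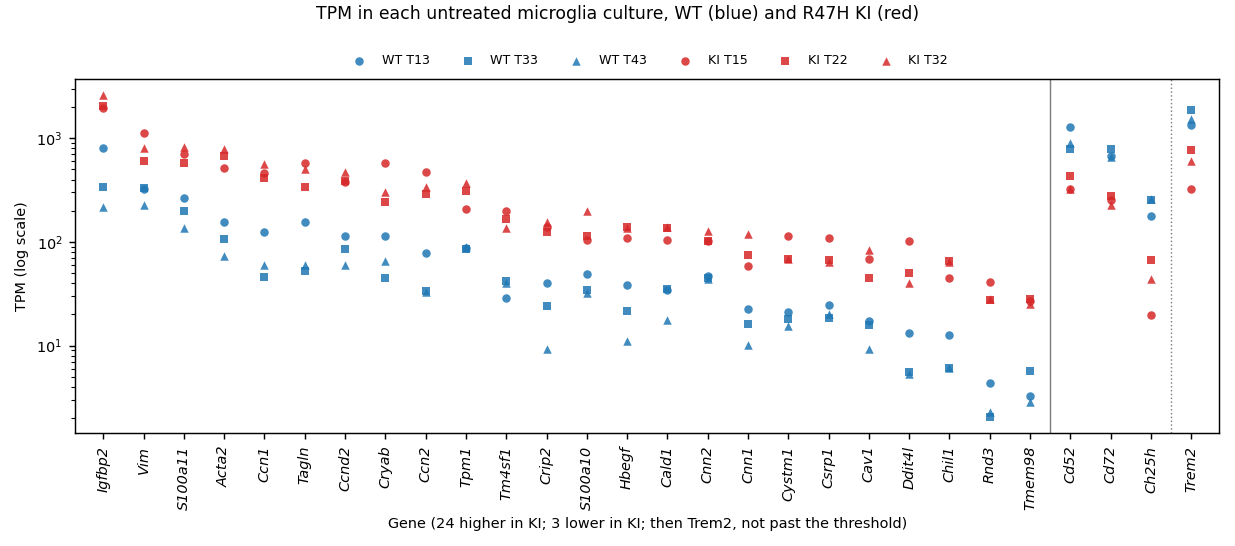
TPM on a log axis in each culture (blue, WT; red, KI; 1 symbol per culture) for the 24 named genes higher in KI, the 3 named genes lower in KI and *Trem2*. In each of the 27 genes past the threshold the red and blue symbols do not overlap, and T15 is not consistently the highest red symbol, being lowest for *Acta2* and *Tpm1*.

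Genes lower in KI included the inhibitory receptor *Cd72*, a C-type lectin of B cells and microglia that binds semaphorin 4D. Its WT values were 675.5 TPM in T13, 794.9 TPM in T33 and 657.3 TPM in T43, and its KI values 251.4 TPM in T15, 278.9 TPM in T22 and 229.5 TPM in T32. The spread within each genotype was small beside the gap, the WT mean of 709.3 ± 74.8 TPM being 2.80 times the KI mean of 253.3 ± 24.8 TPM (SD, n = 3 each, difference -1.48, SE 0.17, adjusted p = 0.0123). T15, whose microglial marker sum was the lowest, held the middle KI value, whereas relative to the microglial markers the *Cd72* difference was -0.86 and not past the threshold. The part of microglial content was not tested. Of 19 tested inhibitory receptors and their phosphatases *Cd72* was the only one past the threshold, 15 were lower, and the median was -0.56, with -0.22 without T15 and 0.07 relative to the microglial markers.

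*Ch25h*, cholesterol 25-hydroxylase, which makes the antiviral and inflammatory oxysterol 25-hydroxycholesterol, had the largest difference of the 3 named genes that were lower past the threshold. It stood at 178.8, 253.9 and 257.9 TPM in WT and 19.9, 67 and 43.6 TPM in KI (difference -2.52, SE 0.38, adjusted p = 0.0365). The WT mean was 5.29 times the KI mean. *Ch25h* was the only one of 26 tested lipid and cholesterol genes past the threshold, and 15 of the 26 had positive differences, as did 63.2% of all genes. *Hmgcs1*, an enzyme of cholesterol synthesis named here after its values were seen, had 80.4, 53.9 and 37.3 TPM in WT and 177.8, 102.6 and 127.7 TPM in KI (adjusted p = 0.127). *Cd52*, a short glycosylphosphatidylinositol-anchored surface protein of leukocytes, stood at 1287, 788.1 and 904 TPM in WT and 325.2, 435.2 and 324 TPM in KI (difference -1.44, adjusted p = 0.0393). The *Cd52* call was lost in 9 of 18 alternatives. Among these were a pseudocount of 0.1, quantile normalization and leaving out T13 (limma adjusted p between 0.0508 and 0.0597). It was also lost without T43 (0.142), with no variance trend (0.2005) and with no expression filter (0.359). Over all alternatives its adjusted p lay between 0.00993 and 0.359. The predicted gene *Gm21769* was listed at 0 in all KI cultures and between 15.7 and 21.5 TPM in WT, and so passed the expression limit through its WT values alone.

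Set relative to the microglial markers of each culture, a scaling chosen after seeing the data, the differences of *Cd72*, *Ch25h*, *Cd52* and *Trem2* were -0.86, -1.89, -0.81 and -0.93. Of these, *Ch25h* was past the threshold (adjusted p = 0.0281), whereas *Cd72* and *Cd52* were not (adjusted p = 0.1 each). On that scale 125 genes were higher and 2, *Ch25h* and *Gm21769*, lower, and the median difference of all genes was 0.80.

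Further genes with the smallest p among those lower in KI were not past the threshold. *Coro1a*, coronin 1A, an actin regulator of leukocytes, stood at 400, 465.4 and 401.9 TPM in WT and 205.3, 227.9 and 221.2 TPM in KI (difference -0.95, adjusted p = 0.0546). *Tnip3* stood at 54.1, 33.4 and 39.7 TPM in WT and 6.03, 11.4 and 2.86 TPM in KI (difference -2.61). *St3gal6*, a sialyltransferase, stood at 60.2, 40.9 and 40.3 TPM in WT and 14.5, 10.1 and 4.93 TPM in KI (difference -2.24). *Ncf4*, a subunit of the NADPH oxidase, *Glrx*, glutaredoxin, and *Glipr1* had differences of -1.13, -1.02 and -1.09. Relative to the microglial markers the differences were -0.32 for *Coro1a*, -1.99 for *Tnip3*, -1.61 for *St3gal6*, -0.51 for *Ncf4*, -0.39 for *Glrx* and -0.46 for *Glipr1*. The precursor genes *Mir221* and *Mir1903* were listed at 0 in all KI cultures, so that WT values alone took them past the expression limit, and TPM of so short a gene is uncertain.

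Lists of microglial function had negative medians, and of their members only those already given were past the threshold in limma. Of 23 microglial identity genes, 22 had negative differences, 11 had every KI culture below every WT culture (47.8%, against 4.55% of all genes) and 11 had an unadjusted p below 0.05. Their median difference was -0.69, and -0.06 relative to the microglial markers, with which the list shares genes. *Aif1*, which encodes IBA1, stood at 512.8, 326 and 392.1 TPM in WT and 178.6, 216.8 and 149.6 TPM in KI (difference -1.16, adjusted p = 0.0581). *Fcrls* stood at 790.9, 756.1 and 886.1 TPM in WT and 507.4, 434.7 and 482.4 TPM in KI (adjusted p = 0.0884).

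Of 16 complement genes, 8 had every KI culture below every WT culture (50%, against 4.55% of all genes), and the median was -0.73, and -0.10 relative to the microglial markers. *C1qb*, a chain of the initiator of the classical pathway, stood at 4926, 4959 and 4815 TPM in WT and 2141, 3244 and 2817 TPM in KI (difference -0.86, adjusted p = 0.123). Of 20 phagocytic receptors, 18 had negative differences with a median of -0.42, which was 0.20 relative to the microglial markers, and the scavenger receptor *Msr1* stood at 154.3, 253.4 and 219 TPM in WT and 82.7, 133.4 and 118.5 TPM in KI. Of 35 genes of leukocyte actin and migration, 31 had negative differences with a median of -0.34, which was -0.16 without T15. *Abi3*, an adaptor of the WAVE complex and an AD risk gene, stood at 86.5, 79.7 and 59 TPM in WT and 24.8, 34.2 and 32.1 TPM in KI (difference -1.27, adjusted p = 0.0771, and -0.65 relative to the microglial markers). The medians of the contractile and the leukocyte actin list thus had opposite signs, but relative to the microglial markers, a scale on which the median of all genes was 0.80, they were 2.05 and 0.29.

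Among the largest differences in TPM itself were those of 2 abundant macrophage genes, named here after their values were seen. *Lyz2*, lysozyme, stood at 42560, 50610 and 49100 TPM in WT and 24930, 30760 and 33160 TPM in KI (adjusted p = 0.322). *Tmsb4x*, thymosin β4, which sequesters actin monomers, stood at 21620, 22840 and 21970 TPM in WT and 8565, 16340 and 11750 TPM in KI (adjusted p = 0.217). For both, every KI culture lay below every WT culture, as for 4.55% of all genes. The 10 most abundant genes took between 29.9% and 33.1% of the TPM in WT and between 22.3% and 28.1% in KI, and since TPM sums to a fixed total, a lower share of these leaves a higher share for others.

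Inflammatory and activation lists were mixed. The median differences were -0.19 for 24 activation genes, -0.17 for 17 chemokines and receptors, -0.29 for 11 cytokines, -0.47 for 14 interferon-response genes and -0.38 for 13 antigen-presentation genes, each with 0 genes past the threshold in limma and between 1 and 9 at an unadjusted p below 0.05. Without T15 the chemokine median turned to 0.38, and those of the activation, cytokine and antigen-presentation genes were -0.10, -0.10 and -0.23. All 5 medians turned positive, between 0.15 and 0.45, relative to the microglial markers. *Ccl2*, a chemoattractant of monocytes, stood at 17.7, 20.1 and 26.9 TPM in WT and 63.5, 56.8 and 64.9 TPM in KI (difference 1.49, adjusted p = 0.0546), and *Ccl4* at 296.4, 644.5 and 760.1 TPM in WT and 168, 268.6 and 169.6 TPM in KI (difference -1.41, adjusted p = 0.124). The differences of these 2 chemokines had opposite signs, each without overlap of the genotypes. Of the 17 chemokines and receptors, 3 had every KI culture above every WT culture (17.6%, against 13.9% of all genes). For 4 of the 17, every KI culture lay below (23.5%, against 4.55%). *Cst7*, cystatin F, a marker of activated microglia, stood at 269, 259.9 and 199.2 TPM in WT and 27.3, 130.9 and 8.36 TPM in KI (difference -2.89, adjusted p = 0.137). *Il1b*, interleukin 1β, was 213.2, 38.7 and 74 TPM in WT and 24, 41.1 and 23.2 TPM in KI, with overlap. The *Tnf* difference was 0.01, between -0.57 without T22 and 0.38 without T32, so that its sign turned with the culture left out. The immediate early gene *Ier3* stood at 34.4, 18.9 and 16.8 TPM in WT and 68.3, 121.8 and 85 TPM in KI (difference 1.96, adjusted p = 0.053).

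The remaining lists held 0 genes past the threshold in limma. Their medians were -0.49 for 17 genes of NF-κB and TRAF signalling, -0.46 for 15 integrins, -0.18 for 22 lysosome and iron genes, -0.17 for 24 AD risk genes, -0.07 for 14 genes of the IL-4 pathway, -0.02 for 14 eicosanoid genes, 0.10 for 20 glycolysis genes, 0.18 for 16 proteases and 0.24 for 18 immediate early genes. The 11 reference genes had a median of 0.01. Without T15 the sign turned for integrins (0.11), lysosome and iron genes (0.08), eicosanoid genes (0.10), glycolysis genes (-0.12) and reference genes (-0.02). The medians were then -0.01 for AD risk genes, -0.25 for NF-κB and TRAF genes, -0.03 for IL-4 pathway genes and 0.38 for immediate early genes. After median-ratio scaling it turned for proteases (-0.01), glycolysis genes (-0.09) and reference genes (-0.18). Relative to the microglial markers all of these medians were positive, between 0.14 and 0.87, with 0.80 for all genes. At an unadjusted p below 0.05 these lists had between 0 genes (glycolysis) and 8 genes (integrins).

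**Figure D4:**
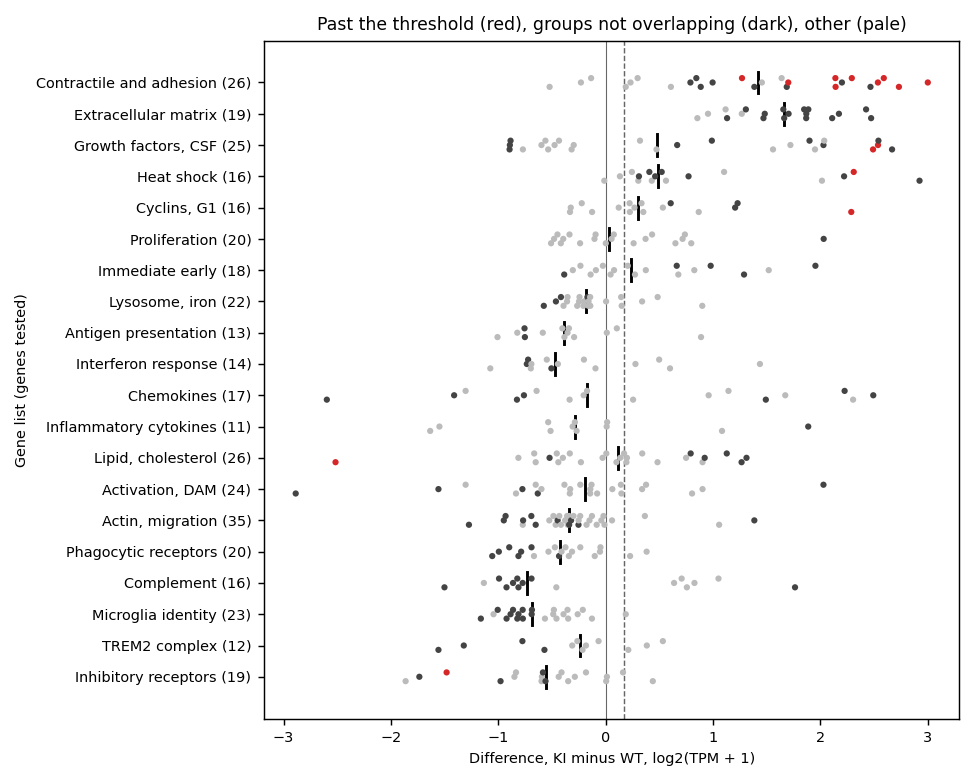
Each point is a tested gene of 1 list, placed by its KI minus WT difference on the log2(TPM + 1) scale, with the number of tested genes after each list name. The black bars are list medians and the dashed line is the median of all genes, 0.17. Contractile and matrix lists have medians of 1.42 and 1.66, and microglial identity and complement -0.69 and -0.73.

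A list drawn from the study's text, its RT-qPCR targets and reference genes and its supplementary gene tables is given here by its values, and most of it was not chosen independently of these cultures. Of its 35 genes 32 were tested, and 1 was higher and 2 lower past the threshold, namely *Ccnd2*, *Cd72* and *Ch25h*. *App*, the amyloid precursor protein, stood at 125.5, 132.8 and 109.3 TPM in WT and 220.7, 154.8 and 198.4 TPM in KI (difference 0.63, adjusted p = 0.242). The *App* difference was 0.44 after median-ratio scaling and 1.25 relative to the microglial markers. *Hspa1b*, an inducible heat-shock protein, was at most 0.0533 TPM in WT and between 6.33 and 7.41 TPM in KI (adjusted p = 0.0884), and passed the expression limit through its KI values alone. *Apoc2* overlapped between the genotypes (difference -0.44, adjusted p = 0.405), and its difference lay between -0.66 with the astrocyte covariate and 0.19 relative to the microglial markers, with -0.28 without T22. *Pik3ap1*, a signalling adaptor, stood at 138.1, 179.6 and 130.1 TPM in WT and 38.5, 81.4 and 63.8 TPM in KI (difference -1.32, adjusted p = 0.0923, and -0.695 relative to the microglial markers). *Neurl1a*, *Traf1* and *Oas1b* had mean values under the expression limit and were not tested. *Traf1* was at most 0.0235 TPM in WT and between 5.63 and 7.71 TPM in KI, *Neurl1a* between 1.14 and 5.53 TPM in WT and listed at 0 in KI, and *Oas1b* between 0.653 and 1.19 TPM in WT and at most 0.0835 TPM in KI.

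After IL-4, values of the same cultures can be set beside the untreated ones. *Acta2* stood at 152.6, 127.8 and 232.7 TPM in WT and 349.4, 789.8 and 484.6 TPM in KI, a difference of 1.62 against 2.59 untreated. *Cd72* stood at 1111, 1032 and 991.8 TPM in WT and 344.9, 381.2 and 454.2 TPM in KI, a difference of -1.42 against -1.48. *Ch25h* stood at 69.5, 62.5 and 50.6 TPM in WT and 27.8, 28.9 and 38 TPM in KI, a difference of -0.93 against -2.52. After IL-4, 2 genes were past the threshold in limma (0.018% of those tested), *Cd72* lower and *Tm4sf1* higher in KI. Of the 26 genes higher in untreated KI, 16 had every KI culture above every WT culture after IL-4, against 12.5% of all genes, and *Gm10241* and *Gm28960* had differences of -1.50 and -0.69. The 26 were picked in these same cultures, so the count after IL-4 is not independent of that choice. The median difference of the contractile list was 0.55 after IL-4 and that of the matrix list 0.38. The difference between the untreated and the IL-4 contrast was tested as an interaction, and limma with the culture as a replicate block gave 0 genes past the threshold (smallest adjusted p = 0.636) and 558 genes at an unadjusted p below 0.05. Without the block it gave 0 and 355 genes.

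**Figure D5:**
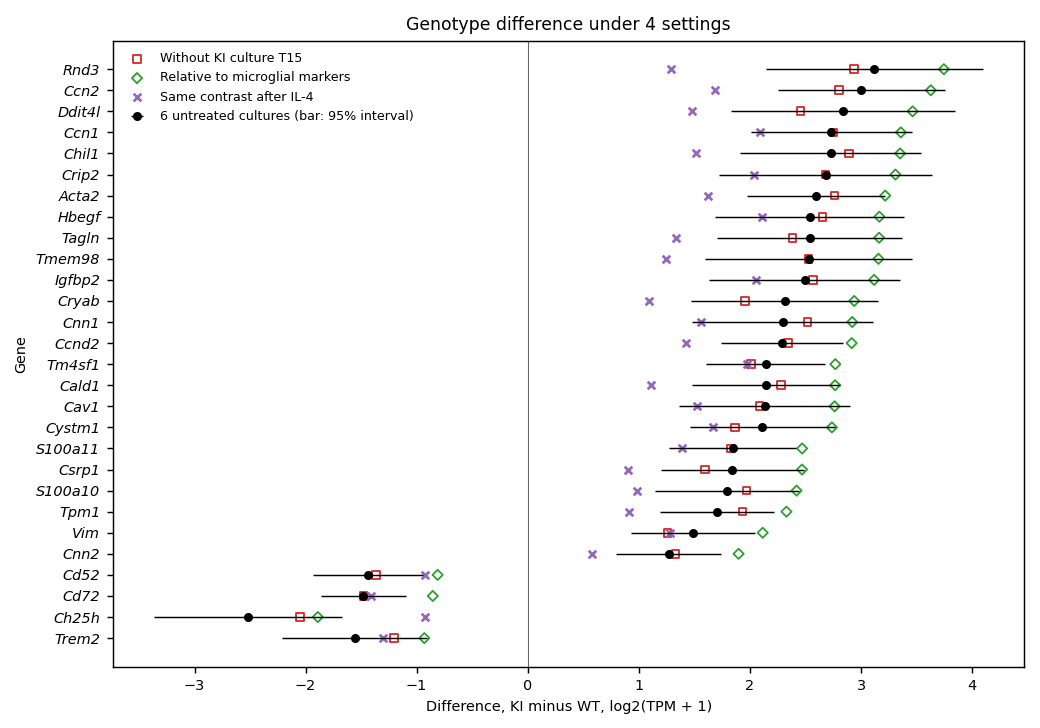
KI minus WT difference on the log2(TPM + 1) scale for the 27 named genes past the threshold and *Trem2*: black points with bars are the 6 untreated cultures with their 95% interval, red squares leave out KI T15, green diamonds are relative to microglial markers, and purple crosses are the same contrast after IL-4. For *Acta2* the 4 marks lie at 2.59, 2.76, 3.22 and 1.62.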

How the data were processed

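Per the labels and the study's methods, adaptors were removed by the authors with Trim Galore, and Salmon estimated transcript abundance on ENSEMBL GRCm38, which tximport summed per gene. Tool versions are not given in the sources used here. The deposited values are TPM per gene and library. TPM keeps no counts, so the read depth per gene is unknown and no counting interval is given. The authors' test on read counts could not be repeated on TPM, and limma on log values took its place.

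The 48623 genes were matched by identifier to GRCm38 names (48350 matched). Genes with a mean log2(TPM + 1) above 1.5 over the 6 untreated libraries (11134) were fitted in R 4.3.3 with limma 3.58.1, using moderated variances with a trend on expression and Benjamini-Hochberg adjustment over all of them. In a test on simulated data for this contrast, 47.5% of the 200 genes among 11134 that were given a log2 change of 2 were recovered, with 2.06% false calls. The simulation drew each gene independently, with no outlying culture and no shift shared by genes, so these rates need not hold for the cultures. Untreated and IL-4 libraries of 1 culture share a culture number, which the replicate block uses (within-culture correlation 0.196).  Promoter sequences are from RefSeq.

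Named were *Trem2*, up to 12 genes per direction with the smallest p and no overlap of the genotypes (predicted, mitochondrial and unnamed genes left out), genes named in the study or its supplementary tables, list members past the threshold, and up to 2 members by value of other lists. The groups, lists and this rule were chosen with earlier results of these data known. Alternatives were another pseudocount, filters, scalings, variance models, an astrocyte covariate, fits with the IL-4 libraries, and leaving out each culture.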

Additional observations from a re-analysis of the deposited data

How the results depend on the processing

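The number of genes past the threshold, 30 (26 higher and 4 lower in KI), moved with the processing. It was 12 (11 and 1) with a pseudocount of 0.1, 2 (0 and 2) with no expression filter, 62 (50 and 12) with a filter at 3, 12 (10 and 2) after quantile normalization, 5 (4 and 1) with no variance trend, and 51 (12 lower) with the astrocyte covariate. Without a filter, 27380 genes were tested, and the 2 past the threshold shared 0 genes with the 30. Median-ratio scaling gave 27, of which 7 were lower. Relative to microglial markers, a scaling added after seeing the data, it was 127 (125 and 2). Over all 12 libraries it was 108 (81 and 27) without and 135 (102 and 33) with the replicate block. Leaving out 1 culture at a time gave between 0 and 55 genes, between 0 and 51 higher and between 0 and 9 lower, with 0 in limma without WT T33 or KI T32. The microglial marker difference lay between -0.81 and -0.38 and the astrocyte marker difference between 0.52 and 2.35 in those fits. A filter over all 12 libraries and a robust fit gave 26 and 28 genes. For 89 single genes, the 30 among them, 1283 values under alternatives kept their side of the threshold, 228 lost it and 76 gained it. Each of the 30 lost its call in between 4 and 15 of 18 alternatives, with a median of 8. The causes were not tested. With 3 cultures per genotype and unknown read counts per gene, a difference not past the threshold may still be present.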
